A study of Mus musculus with 12 samples.

Results

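Tbx3, Zfp42, Tcl1, Fbxo15 and Gbx2 are 5 genes of the naive pluripotency programme of mouse embryonic stem (ES) cells, and they were followed here over 5 days of Esrrb depletion. They were chosen from these same arrays for a fall that lasted to day 5, by the onset and the end level of that fall, and they are 5 of the 19938 genes measured. Their own changes are therefore given as a description, with no test. The label did not hold throughout: Gbx2 rose at day 1 before it fell.

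The cells were Esrrb_R ES cells, 1 rescue clone of the mouse ES line AINV15, which carries the reverse tetracycline transactivator. In all groups a short hairpin RNA driven by the H1 promoter acted against the endogenous Esrrb mRNA, and a GFP-tagged Esrrb that the hairpin does not recognise was made from a promoter that works only with doxycycline (Dox). The day 0 group had 1 µg/ml Dox, and the day 1, day 3 and day 5 groups were without Dox for that time, in serum with Lif and, per the study's methods, on gelatin without feeder cells. Each of the 4 days had 3 replicates on Affymetrix Mouse Gene 1.0 ST arrays, 12 arrays in all, and there was no array of cells in which Dox or time in culture changed alone, so those cannot be told apart from the loss of Esrrb.

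Naive pluripotency is the state of the early epiblast, which ES cells hold in culture under Lif. A network of transcription factors, with Esrrb among them, keeps the shared pluripotency genes on together with a further set that is switched off when cells move towards the primed epiblast. Tbx3 is a T-box transcription factor that supports self-renewal, Gbx2 is a homeobox factor that acts downstream of Lif and Stat3, and Zfp42 (Rex1) is a zinc finger protein related to Yy1 and a common marker of the naive state. Tcl1 is a cofactor that binds the kinase Akt and raises its activity. Fbxo15 is an F-box protein, the part of an SCF ubiquitin ligase that picks its substrate, and its locus has served as a reporter of the ES cell state.

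Values are log2 signals after robust multi-array averaging (RMA), on which 1 unit is a doubling. Levels are comparable between arrays for 1 gene but not between genes. The array medians lay between 6.92 and 7.05, and the lowest correlation between arrays of the same day was 0.992. Esrrb, the depleted gene, had signals of 11.59, 11.54 and 11.63 at day 0, and its mean changes from day 0 at days 1, 3 and 5 were -2.46, -3.39 and -3.40 (SE 0.07 each). The day 5 mean was 9.47% of day 0. Whether this probe set reads the endogenous transcript, the rescue transcript or both was not tested. All 9 ES cell markers fixed for the check lay above the median of all gene values (7.32) at each day. Their summed linear signal, in which Zfp42 is 1 of the 9, ran from 35300 to 36900 at day 0 and from 25500 to 26000 at day 5. The mean of Pou5f1 was 12.44 at day 0 and 11.94 at day 5 and that of Sox2 12.28 and 11.62, while that of Lin28a was 10.38 and 10.78 and that of Sall4 11.29 and 11.41. In such bulk RNA, fewer cells expressing a gene and less RNA per cell cannot be told apart.

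The Tbx3 signal was 10.49, 10.48 and 10.46 at day 0, and it was 9.72, 9.82 and 9.81 at day 1. It reached 9.0, 8.94 and 8.93 at day 3 and 8.73, 9.04 and 8.98 at day 5. Each step down to day 3 separated all arrays of the days concerned, whereas the day 3 and day 5 arrays overlapped. The changes from day 0 at days 1, 3 and 5 were -0.69, -1.52 and -1.56 (SE 0.07), so that 97.5% of the day 5 change was present at day 3. The linear signal at day 5 was 33.9% of day 0.

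Gbx2 took another course. Its signal was 8.98, 8.99 and 9.05 at day 0 and 9.28, 9.38 and 9.27 at day 1, with all 3 day 1 arrays above all day 0 arrays. It then dropped to 8.15, 8.24 and 8.19 at day 3 and to 7.93, 7.90 and 7.73 at day 5, where every array lay below every day 3 array. The changes from day 0 at days 1, 3 and 5 were 0.30, -0.81 and -1.15 (SE 0.06), which is 123% of the day 0 signal at day 1 and 45.0% at day 5. The fall from day 1 to day 3, -1.12, was the second largest of the 5 genes after Tcl1.

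The Zfp42 signal was 11.29, 11.25 and 11.18 at day 0 and 10.82, 10.84 and 10.70 at day 1. It was 9.85, 9.78 and 9.83 at day 3 and 9.58, 9.84 and 9.53 at day 5, and replicate 2 of day 5 lay within the day 3 range. The changes at days 1, 3 and 5 were -0.46, -1.42 and -1.60 (SE 0.08), and 33.1% of the day 0 signal was left at day 5. Most of this fall came after day 1, since 28.6% of the day 5 change was present at day 1 and 89.3% at day 3.

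Tcl1 fell the most. Its signal was 9.32, 9.56 and 9.36 at day 0, then 8.65, 8.58 and 8.65 at day 1, 7.68, 7.21 and 7.43 at day 3, and 6.87, 7.14 and 7.01 at day 5. No 2 neighbouring days overlapped. The change was -0.79, -1.97 and -2.41 at days 1, 3 and 5 (SE 0.11), and 18.8% of the day 0 signal was left at day 5. The day 5 mean, 7.0, lay below the median of all gene values (7.32). How much of the signal left there was Tcl1 transcript was not tested. Ordered from the largest fall at day 5, Tcl1 stood at place 15 of 19938 genes, ahead of Zfp42 at 79, Tbx3 at 88, Gbx2 at 212 and Fbxo15 at 250.

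The Fbxo15 signal was 11.72, 11.79 and 11.64 at day 0 and 11.13, 11.15 and 11.12 at day 1. It was 10.77, 10.56 and 10.67 at day 3 and 10.47, 10.80 and 10.67 at day 5, and these last days overlapped. The changes at days 1, 3 and 5 were -0.58, -1.05 and -1.07 (SE 0.08), and 47.7% of the day 0 signal was left at day 5. Of the 5 genes it had the largest share of its day 5 change at day 1, 54.7%.

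**Figure D1:**
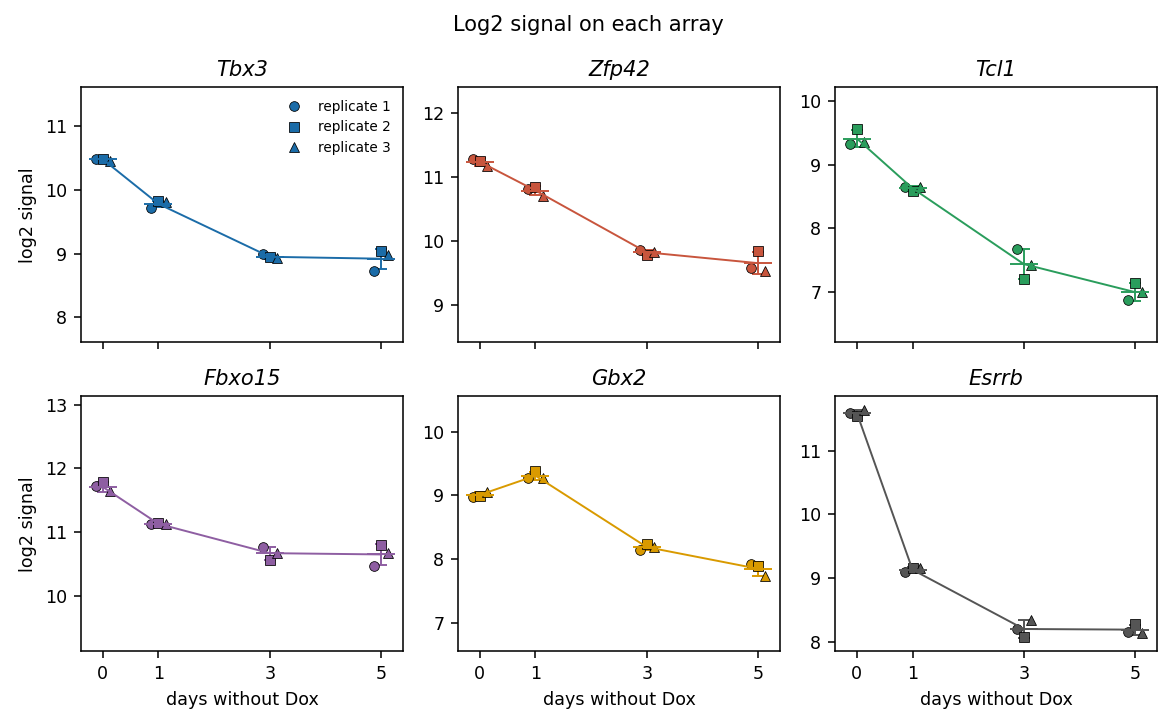
Log2 signal (vertical axes, each spanning 4 log2 units around its own gene) against days without Dox for the 5 genes and Esrrb; symbols are single arrays by replicate, the line joins day means and bars are SD (n = 3 arrays). Gbx2 alone of the 6 genes has its day 1 arrays above day 0, and the day 3 and day 5 arrays of Tbx3, Zfp42 and Fbxo15 overlap.

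At day 1, all arrays lay below all day 0 arrays for 4 of the 5 genes, beside 12.6% of all genes, and above for 1, Gbx2, beside 17.7%. At day 3 and at day 5 all arrays lay below day 0 for 5 of 5, beside 19.4% and 22.1% of all genes. These counts follow from how the genes were chosen and carry no weight as evidence. From day 3 to day 5 the arrays separated for 2 of 5, Tcl1 and Gbx2, beside 20.5% of all genes. The median change of the 5 genes from day 0 took the values -0.58, -1.42 and -1.56 over days 1, 3 and 5, while the median over all genes was 0.01, 0.00 and -0.02. The 5 genes were chosen for their fall and RMA forces arrays onto 1 distribution, so this contrast carries no weight either.

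The genes differed in when they fell. By straight lines between the day means, 50% of the day 5 change was reached at day 0.91 for Fbxo15, 1.21 for Tbx3, 1.70 for Tcl1, 1.71 for Zfp42 and 2.58 for Gbx2. Esrrb itself reached this point at day 0.69, ahead of all 5. Tcl1 and Zfp42 thus cannot be placed in order, and with 4 sampled days the times are coarse. The change from day 3 to day 5 was -0.04 for Tbx3 and -0.02 for Fbxo15, against SEs of 0.07 and 0.08, and their sign turned to 0.05 and 0.07 without day 5 replicate 1 and to 0.04 and 0.06 with centred array medians. It was -0.17 for Zfp42, -0.34 for Gbx2 and -0.44 for Tcl1, and without 1 array or with another scaling it stayed below 0 for these 3; for Zfp42 it was -0.09 with centred medians.

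The changes in signal were set against each other on the same arrays, which takes out effects of an array but not of a probe set. Each gene had 1 probe set, and RMA compresses changes of dim genes. The differences are therefore of measured signal, and their size in RNA was not tested. At day 5 the change of Tbx3 minus that of Zfp42 was 0.03 ± 0.08 (SE), and that of Fbxo15 minus Gbx2 was 0.09 ± 0.12. Within each of these pairs the end changes were closer than their error. The change of Zfp42 minus that of Gbx2 was -0.44 ± 0.08, and that of Zfp42 minus Tcl1 was 0.81 ± 0.12. By measured signal the order at day 5 was Tcl1, then Tbx3 with Zfp42, then Gbx2 with Fbxo15. At day 1 the order was another, where the change of each other gene minus that of Gbx2 was between -0.76 and -1.09 and Tcl1 was near Tbx3 (Tbx3 minus Tcl1, 0.09 ± 0.11).

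**Figure D2:**
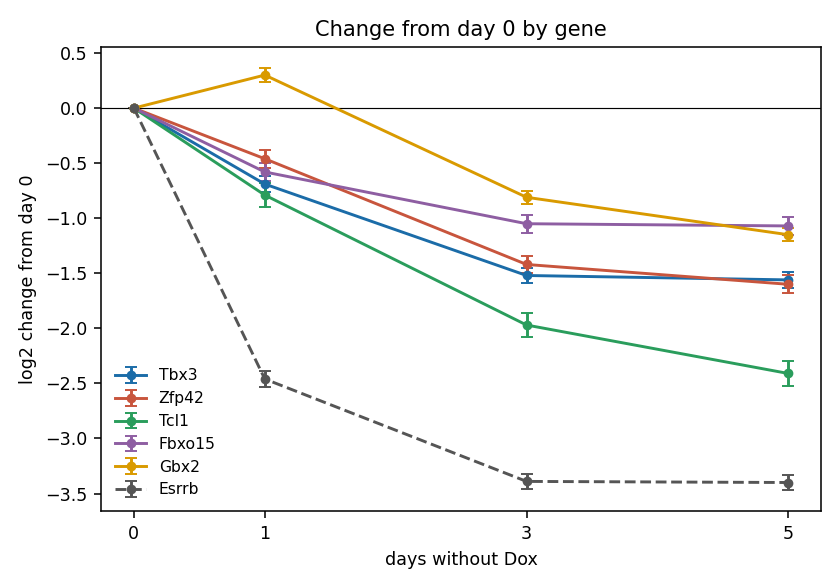
Mean log2 change from day 0 (vertical axis) against days without Dox for the 5 genes (solid) and Esrrb (dashed); bars are the standard errors of the limma model (n = 3 arrays a day). Esrrb falls first and furthest, Gbx2 starts above 0 at day 1 (0.30), and by day 5 the 5 genes lie between -1.07 and -2.41.

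Within a day the replicates of several genes deviated together. Over the 12 arrays, each taken as its deviation from the day mean, the correlation was 0.85 between Tcl1 and Fbxo15, 0.82 between Tbx3 and Fbxo15 and 0.66 between Zfp42 and Fbxo15. Gbx2 had -0.33 with Tbx3, -0.37 with Tcl1 and -0.35 with Fbxo15, but 0.34 with Zfp42. Replicate 2 of day 5 was above its day mean in 5 of 5 genes, by 0.13 on average. These are descriptions, since the genes of 1 array share its RNA and hybridisation.

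The promoter letters are shown because all 5 genes were below day 0 at days 3 and 5. They are printed for 3 genes from the RefSeq promoter table used here (GRCm38.p6). The windows run from 250 bases before to 50 after the annotated start, all 3 on the minus strand, printed 5′ to 3′. Capitals mark matches, on either strand, to motifs of factors that act in ES cells or of the general promoter.
Zfp42 (chr8:43306960-43307259): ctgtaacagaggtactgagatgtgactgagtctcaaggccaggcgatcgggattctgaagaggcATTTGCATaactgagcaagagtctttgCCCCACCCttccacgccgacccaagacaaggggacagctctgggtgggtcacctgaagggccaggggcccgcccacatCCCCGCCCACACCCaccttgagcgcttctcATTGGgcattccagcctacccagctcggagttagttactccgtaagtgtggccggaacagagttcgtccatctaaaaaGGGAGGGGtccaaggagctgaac
Tcl1 (chr12:105222688-105222987): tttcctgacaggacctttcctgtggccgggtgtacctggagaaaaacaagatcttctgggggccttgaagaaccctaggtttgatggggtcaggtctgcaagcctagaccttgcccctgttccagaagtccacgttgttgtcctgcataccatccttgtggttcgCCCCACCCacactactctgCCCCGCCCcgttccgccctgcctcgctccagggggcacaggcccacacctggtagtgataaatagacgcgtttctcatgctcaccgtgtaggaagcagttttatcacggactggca
Gbx2 (chr1:89931127-89931426): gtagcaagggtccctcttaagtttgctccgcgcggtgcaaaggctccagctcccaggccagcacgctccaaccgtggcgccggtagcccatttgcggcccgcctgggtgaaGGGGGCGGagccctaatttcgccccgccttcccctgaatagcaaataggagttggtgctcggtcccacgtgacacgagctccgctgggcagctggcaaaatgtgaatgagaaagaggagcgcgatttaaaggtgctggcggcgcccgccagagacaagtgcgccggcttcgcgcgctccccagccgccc
The Zfp42 window held the octamer ATGCAAAT, the site of Pou5f1 and its relatives, read on the other strand from position -186; 1.74% of 32851 promoters hold it. The Klf motif GGGNGNGG matched at 4 places in Zfp42, 2 of which overlap, at 2 places in Tcl1 and at 1 in Gbx2, but 49.5% of all promoters have at least 1 match. A CCAAT box stood at -51 of Zfp42, as in 37.4% of promoters at any position. AAGGTCA, the element bound by nuclear receptors such as Esrrb that act as monomers, was in none of the 3 windows, and 4.72% of promoters hold it. Nor were the Sox motif CATTGTT (3.78% of promoters), the Stat palindrome TTCNNNGAA (8.3%), the Tcf motif CTTTGAT (3.73%) or the TATA box TATAAA (13.6%) found there. Distal enhancers were not examined.

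The nearest measured gene on each side of the 5 genes was tested with limma across all genes, by a rule set after the data were seen. Triml2, beside Zfp42, fell by 0.64, 1.13 and 1.51 on the log2 scale at days 1, 3 and 5 (SE 0.09; limma adjusted p = 0.00076, 1.5e-06 and 5.9e-08). This came close to the fall of Zfp42 at day 5, -1.60. Adam26b on its other side gave -0.20 ± 0.17 at day 5 and did not pass. Med13l beside Tbx3 was higher at day 1 only (0.28, adjusted p = 0.012), as were 6.45% of all genes at that day. Timm21 beside Fbxo15 was higher at day 3 only (0.45, adjusted p = 0.0077), as were 13.5%. Tbx5, Tcl1b4, Bdkrb2, Cyb5a, Agap1 and Asb18 passed at no day. The Med13l call was lost without day 1 replicate 3 (adjusted p = 0.059), Timm21 passed at days 1 and 5 too without day 0 replicate 2, and Agap1 passed at day 3 without day 0 replicate 3 or day 3 replicate 1, whereas Triml2 passed at all 3 days under every alternative. Triml2 was the 1 neighbour of 10 that was called lower at any day. Over all genes 4.48%, 13.1% and 17.6% were called lower at days 1, 3 and 5, so a count of 1 in 10 is near those shares. Of the others, 5 (Adam26b, Tbx5, Asb18, Tcl1b4 and Bdkrb2) had day 0 means of 3.43 to 6.60. These lay below the median of all gene values, where a fall could have gone unseen.

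None of the 5 measured Tcl1b genes passed limma's test at any day, and none had an unadjusted p under 0.05. Their changes at day 5 ran from -0.09 (Tcl1b4) to 0.16 (Tcl1b2), next to -2.41 for Tcl1, which was itself chosen for its fall. Their means at day 0, 4.05 to 6.42, all lay below the median of all gene values (7.32), so that a fall could have gone unseen. Yy1 changed by 0.01 ± 0.05 (SE) at day 5 (adjusted p = 0.91). Among 14 other T-box genes there was 1 higher and there were 2 lower at day 5, beside 17.4% and 17.6% of all genes. Tbx20 rose by 0.36 (adjusted p = 0.0093), Tbx15 fell by 0.49 (adjusted p = 0.0011) and Mga, a T-box protein that pairs with Max, fell by 0.23 (adjusted p = 0.019). Leaving out day 0 replicate 1 or day 5 replicate 1, or centring the array medians, left 1 of these lower calls, and without day 5 replicate 2 there were 2 higher.

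Otx2, a homeobox factor that opposes Gbx2 at the midbrain-hindbrain boundary and rises in the primed epiblast, had a mean signal of 10.07 ± 0.17 (SD, n = 3) at day 0. It was 0.40 higher at day 1 (adjusted p = 0.034), 0.63 higher at day 3 (adjusted p = 0.00075) and 0.48 lower at day 5 (adjusted p = 0.0034). The day 1 call was lost without day 0 replicate 1 or 3 or any 1 of the day 1 arrays (adjusted p = 0.083 to 0.13). Otx2 and Gbx2 were thus both above day 0 at day 1 and both below it at day 5, and at day 3 they stood on opposite sides. Gbx1 and Otx1 passed at no day.

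Fbxo15 was set beside 40 genes of the SCF core and its F-box proteins. At day 5, 10 were higher and 7 lower, beside 17.4% and 17.6% of all genes. The changes of the 40 had a median of -0.06 and a range of -0.54 to 0.68. None fell as far as Fbxo15, which was itself chosen for its fall. Fbxo4 rose the most (0.68, adjusted p = 2.8e-05), and Fbxo22 fell the most (-0.54, adjusted p = 1.1e-05). Fbxo36 rose by 0.47 and Fbxo32, a muscle atrophy ligase, by 0.40, while Fbxo8 fell by 0.39 and Fbxo33 by 0.36 (adjusted p at most 0.00071). The higher count was 6 without day 0 replicate 1 or 2 or without day 5 replicate 1 or 3.

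**Figure D3:**
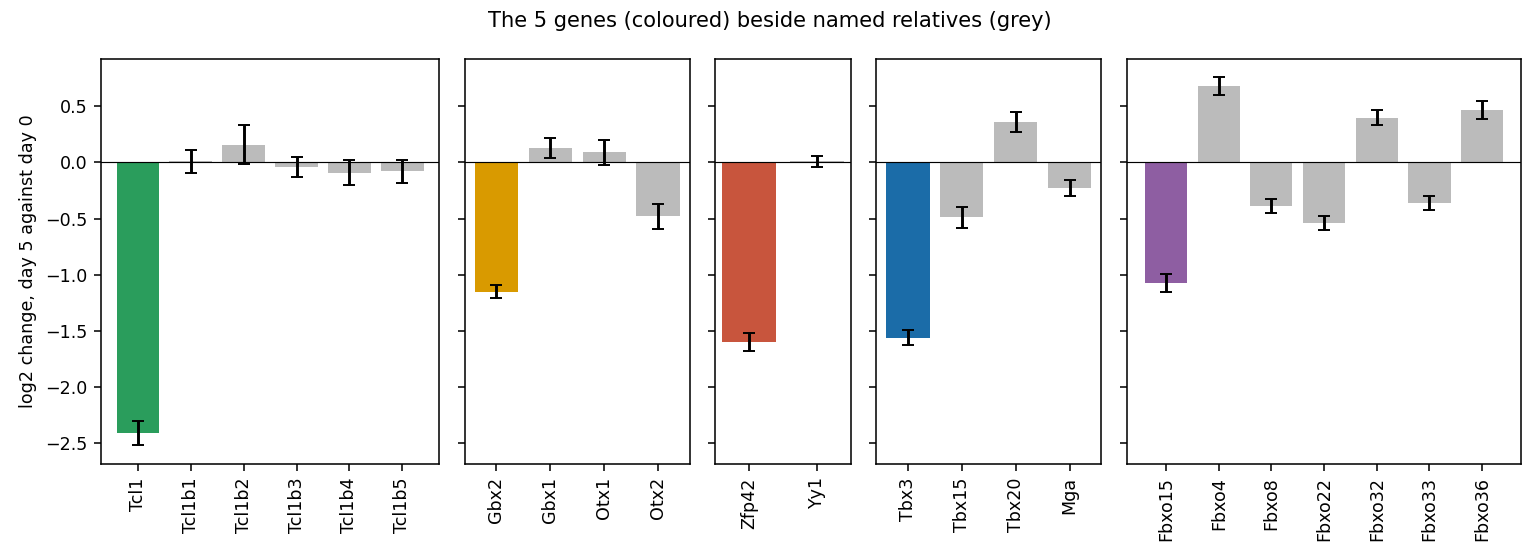
Log2 change from day 0 to day 5 (vertical axis, bars from 0) for the 5 genes in colour and relatives in grey, with limma standard errors (n = 3 arrays a day). The Tcl1b, Yy1, Gbx1 and Otx genes are all those measured. The T-box and F-box genes drawn are only those that passed the test and were named by the rule. Each coloured bar is longer than every grey bar of its panel, but the 5 genes were chosen for their fall, so this carries no weight as evidence.

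For the Akt pathway, on which Tcl1 acts, 19 genes were measured. At day 5, 4 were higher and 2 lower, beside 17.4% and 17.6% of all genes, and the median was 0.08; both counts were near those shares. Pik3cb, a catalytic subunit of PI3 kinase, rose by 0.90 (adjusted p = 1.6e-07), Akt1 by 0.68 (adjusted p = 6.9e-06) and Gsk3b by 0.34 (adjusted p = 0.0013). Inpp5d, the lipid phosphatase Ship1, fell by 1.04 (adjusted p = 1.9e-05), and Eras, the ES cell Ras, fell by 0.24 (adjusted p = 0.0072). The lower count was 5 without day 5 replicate 3, and with centred array medians the higher count was 7 and the lower count 1, without Eras (adjusted p = 0.058).

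The Lif, Jak and Stat3 list holds the pathway upstream of Gbx2 and also genes downstream of Stat3. Of its 15 measured genes, 8 were higher and 1 lower at day 5, beside 17.4% and 17.6% of all genes. Jak2 rose by 1.02 (adjusted p = 7.2e-07), Lif by 0.82 (adjusted p = 9.1e-06) and Ptpn11, a phosphatase of the receptor, by 0.55 (adjusted p = 6.9e-06). Bcl3, a target of Stat3, fell by 0.51 (adjusted p = 4.5e-05). Against day 3, 11 were higher at day 5 and 0 lower by limma, with 11 at an unadjusted p under 0.05, beside 13.0% and 12.2% of all genes. Gbx2 fell by 0.34 over the same days, and a link between its fall and these genes was not tested. Stat3 itself was 0.11 above day 0 at day 5 (adjusted p = 0.24).

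The other naive genes were compared to show where the 5 genes stood among them. Of 15 measured, 9 were lower and 0 higher at day 1 (11 at an unadjusted p under 0.05), beside 4.48% and 6.45% of all genes. At day 3, 13 were lower and 0 higher (14 at an unadjusted p under 0.05), beside 13.1% and 13.5%. At day 5, 13 were lower and 1, Dppa3, was higher, beside 17.6% and 17.4%; the call of Dppa3 was lost without day 0 replicate 1 or day 5 replicate 2. Their median change was -0.36, -0.62 and -1.07. Nr0b1 (Dax1) had the largest fall at day 5, -3.05 (adjusted p = 1.9e-09), followed by Jam2 at -2.73, Tfcp2l1 at -1.74 and Tet2 at -1.67, and Tcl1 lay between Jam2 and Tfcp2l1. The list was chosen with earlier results of these arrays known, so its direction is not independent evidence.

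After day 3 the other naive genes did not all move the same way. Of the 13 that were lower at day 5, 4 were higher than at day 3, beside 13.0% of all genes. A further 2 were lower still, beside 12.2% of all genes and so near that share, and 7 passed in neither direction. The 4 were Tfcp2l1 (0.56, adjusted p = 0.0018), Klf4 (0.48, adjusted p = 0.0003), Nanog (0.37, adjusted p = 0.00056) and Klf5 (0.28, adjusted p = 0.0042), all transcription factors of the naive network. Stat3, which is also in the Lif, Jak and Stat3 list, was higher than at day 3 too (0.26, adjusted p = 0.0094). Fgf4, a differentiation signal of ES cells, fell by a further 0.80 (adjusted p = 4e-05) and Dppa5a by 0.49 (adjusted p = 0.00022). The 7 included Nr0b1 (-0.21), Jam2 (-0.16) and Tet2 (-0.15), and these 3 were called lower when day 5 replicate 2 was left out, which raised the lower count from 2 to 5. Klf2 (-0.07), Nr5a2 (0.08) and Prdm14 (0.23), transcription factors of the naive network too, were also among the 7. By value, Tcl1 and Gbx2 lay with Fgf4 and Dppa5a, and Tbx3, Zfp42 and Fbxo15 with the genes that passed in neither direction. The 5 genes were chosen for a fall that lasted, so their absence from the 4 that rose again carries no weight as evidence.

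**Figure D4:**
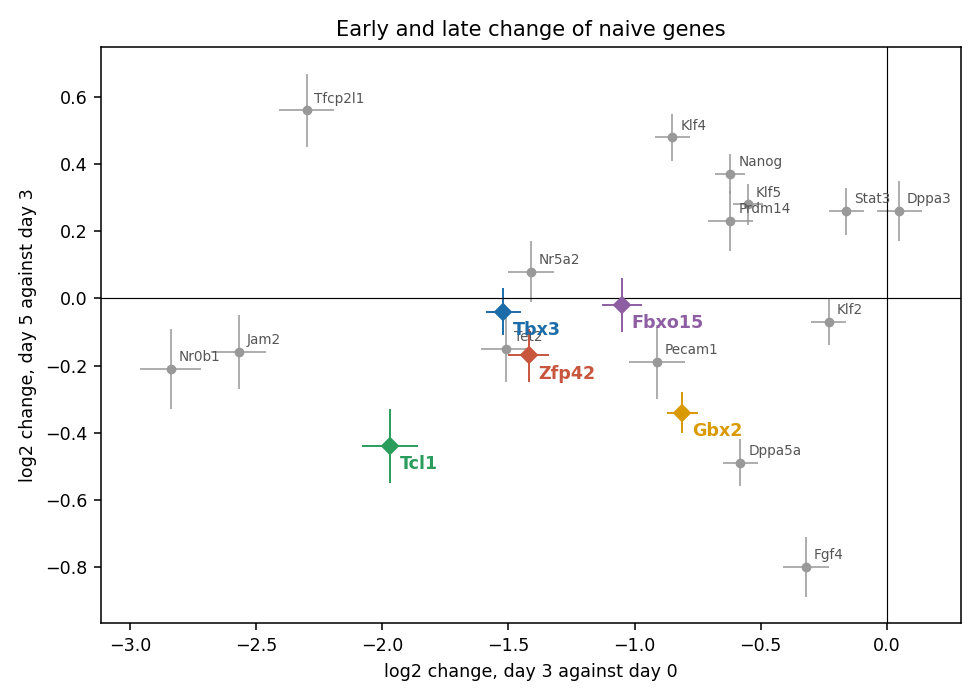
Log2 change from day 3 to day 5 (vertical axis) against log2 change from day 0 to day 3 (horizontal axis) for the 5 genes (coloured diamonds) and the 15 other naive genes (grey points); bars are limma standard errors (n = 3 arrays a day). The 5 genes lie below 0 on the vertical axis, from -0.02 to -0.44, with Tbx3 and Fbxo15 above 0 when medians are centred (0.04 and 0.06). Tfcp2l1, Klf4, Nanog and Klf5 lie at 0.28 or above. The 5 genes were chosen for a fall that lasted to day 5, so this contrast carries no weight as evidence.

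Of 11 general pluripotency genes, 2 were called higher and 1 lower at day 1, beside 6.45% and 4.48% of all genes. The calls were 2 higher and 5 lower at day 3, beside 13.5% and 13.1%, and 1 higher and 8 lower at day 5, beside 17.4% and 17.6%. The 1 lower call at day 1 was lost without day 0 replicate 1 or 2 or day 1 replicate 1 or 3. The day 5 change was -1.94 for Dppa2 (adjusted p = 1.2e-08), -1.47 for Dppa4 (adjusted p = 3.7e-08), -0.93 for Gdf3 (adjusted p = 7.2e-08) and -0.77 for Utf1 (adjusted p = 3.6e-07). Lin28a was higher (0.40, adjusted p = 0.00012), and a second gene was higher without day 5 replicate 1. No test of the difference in timing between the lists was made.

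The genes with courses most like those of the 5 were ranked by Pearson's r over the 12 arrays, among 3329 genes whose day means spanned at least 0.5. Zfp57, a zinc finger protein that protects imprints, was nearest to Zfp42 (0.998), with changes of -0.45, -1.38 and -1.45, followed by Nr0b1 (0.995) and Septin1 (0.995). Fbp2, a gluconeogenic enzyme, was nearest to Tbx3 (0.993; -2.44 at day 5), followed by Slc25a20 (0.991) and Nr0b1 (0.991). Ube2l6 (0.992), Slc39a4 (0.992) and Plpp3 (0.991) were nearest to Tcl1. Jam2, a junctional adhesion molecule, was nearest to Fbxo15 (0.991), then Ildr1 (0.989) and Slc25a20 (0.985). For Gbx2 the nearest were Ppcs (0.991), Nubp2 (0.985) and Gtsf1l (0.983). Each was above day 0 at day 1, by 0.10 to 0.26, and below it afterwards. They were picked for their likeness to Gbx2 on these arrays, so the shared course carries no weight as evidence.

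These ranks were close: between 87 genes, for Gbx2, and 184, for Zfp42, had r above 0.95. The 12 arrays fall into 4 days, so the r is set mostly by the day means. By Spearman's rho 2 of the 15 pairings of a gene with 1 of its nearest were kept, and with quantile normalization 11 of 15 were. Nr0b1 and Slc25a20 each occur in more than 1 pairing.

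Markers of other states and cell types moved over the same days, and their part in the falls was not tested. At day 1, 8 of 12 primed epiblast genes were higher and none was lower (10 at an unadjusted p under 0.05 by limma), beside 6.45% and 4.48% of all genes, and the split at day 5 was 5 higher to 4 lower, beside 17.4% and 17.6%. Fgf5 rose by 1.87 (adjusted p = 6.5e-07), Zic2 by 1.51 (adjusted p = 4.8e-07) and Wnt8a by 1.44 (adjusted p = 1.2e-05) at day 5, while Dnmt3a fell by 1.70 (adjusted p = 6.2e-09), Fgf15 by 0.75 (adjusted p = 3.8e-05) and Lef1 by 0.44 (adjusted p = 0.00076).

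Among 15 primitive and visceral endoderm markers the day 5 calls were 8 higher and 3 lower, beside 17.4% and 17.6% of all genes; Col4a1 rose by 1.25 (adjusted p = 6.8e-08), Sox17 by 0.80 (adjusted p = 9.1e-07) and Lamb1 by 0.79 (adjusted p = 5.4e-07), while the change was -1.33 for Cubn (adjusted p = 3.7e-07) and -1.30 for Amn (adjusted p = 7.7e-08). Their summed linear signal ran from 22200 to 23100 at day 0 and from 25100 to 29900 at day 5, and 3 of 15 at day 0 and 4 at day 5 were below the median of all gene values. Among 13 neuroectoderm markers there were 2 higher and 4 lower at day 5, beside 17.4% and 17.6% of all genes, with 4 higher under centred medians or quantile normalization. Nes rose by 2.10 (adjusted p = 1.4e-07), and Neurod1 fell by 2.23 (adjusted p = 7.5e-07). Their sum was 2100 to 2210 at day 0 and 1920 to 2080 at day 5.

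Between experiments the line grows on feeder fibroblasts, so 16 fibroblast markers were examined. None passed at day 1 (limma; 3 at an unadjusted p under 0.05). At day 3 there were 2 higher and 8 lower, beside 13.5% and 13.1% of all genes, and at day 5 there were 1 higher and 2 lower, beside 17.4% and 17.6%. Their summed signal ran from 8990 to 9380 on the day 0 arrays and from 8150 to 8540 on those of day 1. It dropped to between 5200 and 5640 at day 3, and the day 5 range, 8230 to 9710, overlapped that of day 0. Prrx1 fell by 1.27 (adjusted p = 5.5e-08) and S100a4 by 0.45 (adjusted p = 0.0041) at day 5, and Col5a1 rose by 0.28 (adjusted p = 0.006). The 2 higher calls at day 3 were 0 without day 3 replicate 2.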

How the data were processed

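Total RNA of Esrrb_R mouse ES cells at days 0, 1, 3 and 5 without Dox was hybridised to 12 Affymetrix Mouse Gene 1.0 ST arrays, 3 biological replicates a day. The authors deposited log2 signals per probe set after RMA in Affymetrix Expression Console; RMA subtracts background and forces arrays onto 1 distribution, which hides any shift of all genes and compresses changes of dim genes. An array gives no read depth; the number of arrays limits the precision. Of 35557 probe sets, 21789 had 1 gene symbol in the platform annotation, 1621 several and 12147 none; 21698 of the named ones were found in the RefSeq gene table (GRCm38.p6), which changed 0 symbols. Single-symbol probe sets were averaged to 19938 genes; each of the 5 genes had exactly 1. The genes and all lists were chosen with earlier results of these data known. Groups came from the sample labels.

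limma 3.58.1 in R 4.3.3 fitted 1 mean per day over all 12 arrays (8 residual degrees of freedom), with Benjamini-Hochberg adjustment over all genes at 0.05; the script was tested on simulated data. Changes are differences of log2 means, with SE from this model; SDs are over 3 arrays. Pairs of genes were compared by the difference of their changes on each array. Python 3.11.15 made the other tables. No paper value or authors' comparison was used.

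Named genes were the 5 genes, Esrrb, the 3 genes with the highest Pearson r to each (day means spanning at least 0.5; clone and model symbols left out), every gene of the other naive, Tcl1, Yy1 and Gbx1/Otx lists where the text needed it, and, of the T-box, SCF and F-box, PI3K and Akt, Lif/Jak/Stat3, general pluripotency, primed epiblast, endoderm, neuroectoderm and fibroblast lists, up to 4 called genes with the smallest adjusted p at day 5 plus up to 3 called in the opposite direction. A few listed genes are not reported here. Alternatives were the brightest probe set, quantile normalization, centred array medians, a trended robust variance prior, no dim genes, the methods' one-way F test with Bonferroni correction and a 2-fold minimum, a term for replicate number (replicate block), Spearman's rho, and leaving out each array. Neighbours were taken from RefSeq gene order, a choice made after seeing the data. Promoters were printed from RefSeq for 3 of the 5 genes, and those of Tbx3 and Fbxo15 were not. Entries on 1 chromosome were left out of the printing, so an absence here does not show that RefSeq lacks the promoter.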

Additional observations from a re-analysis of the deposited data

How the results depend on the processing

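The changes of the 5 genes from day 0 kept their direction under every alternative run; those from day 3 to day 5 did so for Zfp42, Tcl1 and Gbx2, not for Tbx3 and Fbxo15. Leaving out 1 array moved the Tbx3 change at day 5 between -1.62 and -1.47, its share present at day 3 between 93.8% and 104%, and its change from day 3 to day 5 between -0.10 and 0.053 (0.053 without day 5 replicate 1). With centred array medians the Gbx2 change from day 3 to day 5 was -0.26 and its share present at day 3 was 76.6%. Of the other naive genes, 0 were higher at day 1; 1, Klf2, was higher with the trended robust prior or without dim genes, and 0 to 1 when 1 array was left out (1 without day 0 replicate 3 or day 3 replicate 3). At day 5, 0 were higher with the brightest probe set or without dim genes, and 0 to 1 with 1 array left out. Between day 3 and day 5, 2 to 5 were lower with 1 array left out, and at day 1, 6 to 9. The methods' F test called 6 lower and 0 higher at any day, against 13 and 1 by limma.

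Deviations from the day mean gave no sign of pairing by replicate number: of 18 same-number pairs, 0 correlated above 0.1 (-0.17 to 0.07). Whether same-number cultures were handled together is not given by the labels. With a replicate block 8 other naive genes were lower at day 1, against 9 without, and 13 at day 3 and day 5. The call of Nanog at day 5 was lost with centred medians (adjusted p = 0.066). With 3 arrays a day of 1 clone, p-values measure the spread between these cultures only.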
